A study of Mus musculus with 21 samples.

Results

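Blood and endothelial genes were followed in embryoid bodies, the aggregates in which mouse embryonic stem cells (ESCs) differentiate. The set was 10 listed genes, taken by symbol from a table of 24458 genes, and all 10 were present. They were the transcription regulator genes Etv2, Gata2, Tal1, Lmo2 and Sox18, the receptor genes Kdr, Tie1 and Tek, and the adhesion genes Cdh5 and Pecam1. The cells were Rinf (Cxxc5) knockout or wild type ESC lines of a mixed 129/C57BL/6 background, 2 independent lines of each genotype. The lines were maintained in serum with LIF, then differentiated by the hanging drop method, and RNA was collected at days 0, 3 and 6. This gave 2 libraries for each genotype and day, 12 in all. The protein made from Cxxc5 carries a CXXC domain, which recognizes CpG without methylation. Which part of Cxxc5 was deleted is not given here, so its RNA level is only a limited check of the labels.

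Blood and endothelium arise together in early development, from mesoderm cells that begin to make the VEGF receptor encoded by Kdr. The ETS factor Etv2 acts at the entry to this path. Tal1, Lmo2 and Gata2 then work in shared complexes on DNA in blood and endothelial precursors, while Sox18 acts in endothelium. Cdh5 and Pecam1 proteins sit at the junctions between endothelial cells, and Tie1 and Tek form the receptor pair of the angiopoietin system. Pecam1 is also a surface protein of mouse ESCs and of the inner cell mass from which they derive.

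Expression is given as deposited by the authors, in FPKM, which scales reads to transcript length and to library depth. Levels can be compared between genes for that reason. Estimated depth lay between 14900000 and 32400000 reads per library. Cxxc5 was measured at 5.05 to 11.9 FPKM in the 6 knockout libraries and at 25.1 to 52.3 FPKM in the 6 wild type libraries. The Y-linked gene Eif2s3y separated the genotypes as well, with 1.40 to 3.92 FPKM in knockout and 9.40 to 20.4 FPKM in wild type. That difference between the lines and the knockout cannot be told apart in any comparison of genotypes given here. Replicates were close at days 0 and 3, when 149 to 216 of 12472 genes differed by over 1.5-fold between the libraries of a group. At day 6 such genes numbered 613 in knockout and 1070 in wild type.

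Because the CXXC domain reads CpG, the CpG content of the members' promoters is shown first. RefSeq's promoter table (GRCm38.p6, the assembly of mm10) held 8 start sites for 6 of the members, and the 250 bases before each start were read. The median of the 32851 promoters in that table was 6 CpG in this window, with quartiles of 2 and 16. The 2 Gata2 windows held 22 and 24, the Kdr window 16, the 2 Tal1 windows 6 and 16, the Tie1 window 6, the Etv2 window 3 and the Tek window 2. The windows of Kdr and Etv2, the Gata2 window with 24 CpG and the Tal1 window with 16 lie inside the span of their gene. So does most of the Tek window, and these starts are thus not the outermost of the gene. Of all promoters in the table, 85.2% had fewer CpG than the first Gata2 window and 18.8% fewer than the Tek window. Gata2 and Tek are printed for many and few CpG, and Kdr and Etv2 as genes of the entry to the path, 5′ to 3′ on the strand of the gene, with each CpG in capitals.
Gata2 (chr6:88193641-88193890, plus strand): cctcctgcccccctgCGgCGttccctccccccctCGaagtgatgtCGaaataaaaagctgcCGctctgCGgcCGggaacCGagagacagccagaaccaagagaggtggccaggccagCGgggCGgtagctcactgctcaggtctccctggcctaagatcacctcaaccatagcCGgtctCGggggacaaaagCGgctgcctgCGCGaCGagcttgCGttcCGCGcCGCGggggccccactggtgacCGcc
Kdr (chr5:75978456-75978705, minus strand): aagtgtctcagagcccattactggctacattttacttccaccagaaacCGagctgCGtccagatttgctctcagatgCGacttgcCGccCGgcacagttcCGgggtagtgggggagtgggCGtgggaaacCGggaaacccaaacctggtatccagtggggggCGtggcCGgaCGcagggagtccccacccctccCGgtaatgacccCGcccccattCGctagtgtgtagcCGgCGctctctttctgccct
Etv2 (chr7:30635853-30636102, minus strand): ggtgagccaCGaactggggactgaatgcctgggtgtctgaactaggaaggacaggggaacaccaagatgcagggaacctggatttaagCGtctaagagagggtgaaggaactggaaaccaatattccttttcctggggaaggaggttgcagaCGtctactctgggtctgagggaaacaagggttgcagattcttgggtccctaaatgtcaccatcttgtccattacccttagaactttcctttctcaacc
Tek (chr4:94739039-94739288, plus strand): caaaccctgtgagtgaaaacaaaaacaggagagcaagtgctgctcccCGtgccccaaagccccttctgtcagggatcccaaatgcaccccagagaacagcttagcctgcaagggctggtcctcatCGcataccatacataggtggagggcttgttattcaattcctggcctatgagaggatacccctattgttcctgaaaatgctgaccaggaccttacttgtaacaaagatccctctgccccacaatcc

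Searched on both strands, the GATA sequence AGATAA was found once, in the Tal1 window with 6 CpG, and the ETS sequence CCGGAA once, in the Kdr window. Of all promoters in the table, 9.99% hold the first and 12.0% the second. The E-box CANNTG, the kind of site that Tal1 dimers read, was found in the windows of Kdr (1), Tie1 (1) and Tek (2), and 66.2% of all promoters hold it. These matches describe the letters of the windows only.

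At day 0 most of the set was near 0. In both libraries of a genotype, 7 of the 10 genes lay under 1 FPKM in knockout and 7 in wild type, 6 of them shared (Cdh5, Kdr, Sox18, Tal1, Lmo2 and Tie1). Cdh5 was the lowest, at 0.033 and 0.070 FPKM in knockout and 0.022 and 0.048 FPKM in wild type, which stands for about 2 to 5 reads. Kdr lay between 0.081 and 0.201 FPKM. Etv2, Gata2 and Tek were between 0.69 and 1.40 FPKM. Pecam1 stood far above the rest, at 21.5 and 20.9 FPKM in knockout and 20.2 and 21.0 FPKM in wild type. At day 3, 4 genes were under 1 FPKM in both knockout libraries (Kdr, Tal1, Tie1 and Tek), and only Tie1 was so in wild type. By day 6 no gene was under 1 FPKM in both knockout libraries, and only Tie1 was so in wild type. At 1 FPKM or more in both libraries were 8 members in knockout and 5 in wild type. Under 1 FPKM in part of the day 6 libraries were Cdh5, Gata2 and Sox18 in wild type, Tie1 in knockout, and Tek in both genotypes. Tie1 stayed near 0 in 11 of 12 libraries and reached 1.82 FPKM in knockout replicate 2 at day 6. No member was listed at exactly 0 in any library.

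**Figure D1:**
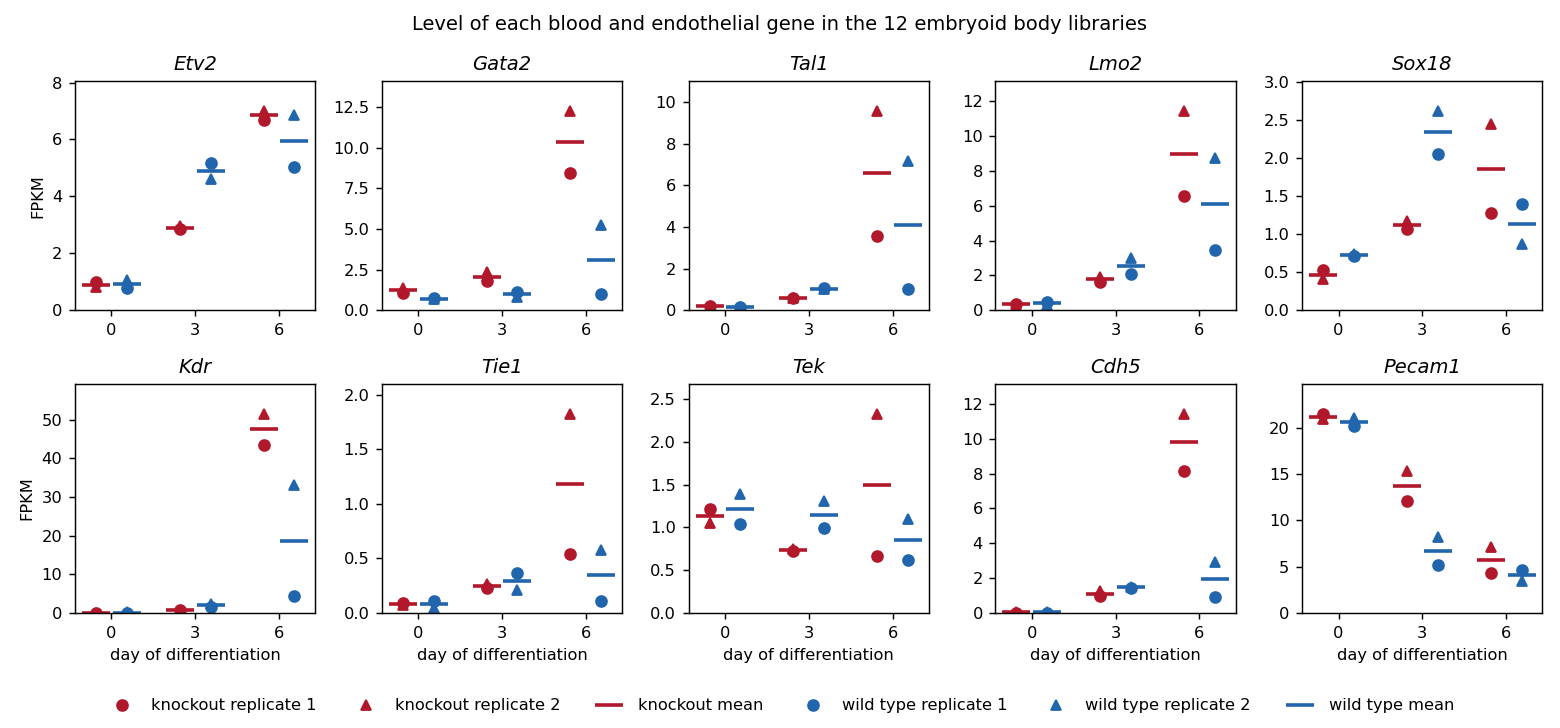
Each panel plots 1 gene, with FPKM on a linear axis that starts at 0 against the day of differentiation. Circles and triangles are replicates 1 and 2, and bars are the means of 2 libraries, with knockout in red to the left and wild type in blue to the right. Pecam1 was highest at day 0, Kdr passed 30 FPKM in 3 of the 4 day 6 libraries, and Tie1 and Tek stayed under 2.4 FPKM throughout.

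Tests were run with limma on log2(FPKM + 1), fitted to all 12 libraries at once with Benjamini-Hochberg adjustment over 12472 genes with a mean of at least 1 FPKM. For 2 libraries of each genotype the smallest p of an exact two-sided permutation is 0.333, so each p comes from that fit. Log2 differences are knockout minus wild type, or later minus earlier day, on the log2(FPKM + 1) scale, which understates changes of low genes. Genes with an adjusted p under 0.05 passed. Of the 10 members 9 were tested, and Tie1, with a mean of 0.371 FPKM, was not. Cdh5, Kdr and Tal1 owe their place above the minimum to day 6, so counts are given out of all 10. Cdh5 reached it only through the knockout libraries of day 6, where its mean was 9.79 FPKM. Its mean was 0.67 FPKM over the 8 libraries of days 0 and 3 and 1.94 FPKM in wild type at day 6. In bulk RNA, fewer cells of a type and less RNA per cell cannot be told apart.

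At day 0 none of the 10 genes differed between genotypes by limma, where 0.369% of all genes passed. At an unadjusted p under 0.05 there were 0 members, against 14.7% of all genes. The largest difference was that of Gata2, which encodes a zinc finger factor of blood stem cells and endothelium (chromosome 6, 88193891 to 88207032 in mm10). It stood at 1.09 and 1.40 FPKM in knockout and 0.737 and 0.693 FPKM in wild type (log2 difference 0.39, SE 0.44, adjusted p = 0.744). The groups did not overlap for Gata2, Tal1 and Sox18, the first 2 higher and the last lower in knockout, and overlapped for the other 7. Among all genes tested, 24.3% lay higher and 25.5% lower in knockout without overlap. The median difference of the 10 genes was -0.01, against 0.00 for all genes.

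At day 3 none of the 10 genes passed between genotypes, though 8 log2 differences were below 0 (median -0.32, against 0.00 for all genes). Etv2 (chromosome 7, 30633616 to 30636509) had 2.87 and 2.94 FPKM in knockout, against 5.18 and 4.6 FPKM in wild type. Its mean in knockout was 59.4% of wild type, and its log2 difference of -0.59 (SE 0.13) did not pass in the fit of 12 libraries (adjusted p = 0.0843, limma). Kdr (chromosome 5, 75932827 to 75979072) had 0.762 and 0.829 FPKM in knockout, against 1.67 and 2.42 FPKM in wild type (log2 difference -0.75, SE 0.65, adjusted p = 0.634). For both genes the knockout libraries lay under both wild type libraries.

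Tal1, a basic helix-loop-helix factor needed for all blood lineages (chromosome 4, 115056426 to 115071755), had 0.581 and 0.587 FPKM in knockout and 1.07 and 1.00 FPKM in wild type at day 3. Lmo2, the LIM-only protein that bridges Tal1 and GATA factors (chromosome 2, 103957903 to 103981878), had 1.64 and 1.93 FPKM in knockout and 2.08 and 3.00 FPKM in wild type. Sox18, an SRY-related factor (chromosome 2, 181669837 to 181671640), had 1.06 and 1.17 FPKM in knockout and 2.06 and 2.62 FPKM in wild type. All 3 were lower in both knockout libraries than in either wild type library. The log2 differences were -0.36 for Tal1 (SE 0.57), -0.33 for Lmo2 (SE 0.35) and -0.65 for Sox18 (SE 0.21), with adjusted p of 0.822, 0.699 and 0.185 by limma.

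Cdh5 had 0.954 and 1.24 FPKM in knockout and 1.45 and 1.52 FPKM in wild type at day 3 (log2 difference -0.25, SE 0.29, adjusted p = 0.737). Tek had 0.722 and 0.746 FPKM in knockout and 0.995 and 1.31 FPKM in wild type (log2 difference -0.31, SE 0.29, adjusted p = 0.661). Tie1 had 0.232 and 0.264 FPKM in knockout and 0.368 and 0.212 FPKM in wild type. The knockout libraries lay under both wild type libraries for Cdh5 and Tek, and between them for Tie1.

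Gata2 was the regulator that stood higher in knockout at day 3. It had 1.81 and 2.34 FPKM in knockout and 1.13 and 0.828 FPKM in wild type (log2 difference 0.63, SE 0.44, adjusted p = 0.536). Pecam1 (chromosome 11, 106654213 to 106715281) was also higher in knockout, at 12.1 and 15.3 FPKM, against 5.20 and 8.17 FPKM in wild type (log2 difference 0.95, SE 0.24, adjusted p = 0.106). The summed level of 9 pluripotency genes at day 3 was 831 and 900 FPKM in knockout and 712 and 761 FPKM in wild type. Among these 9 genes 1 was called higher in knockout, Dppa3, known from naive ESCs and the germ line, and the median difference was 0.29. Of all genes, 1.19% were called at this day. Dppa3 had 94.4 and 102 FPKM in knockout and 49.6 and 57.6 FPKM in wild type at day 0. At day 3 it had 80.9 and 100 FPKM in knockout and 28.3 and 29.0 FPKM in wild type. The part of remaining stem cells in the Pecam1 difference was not tested.

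In all, 7 of the 10 genes were lower in knockout at day 3 without overlap, 2 were higher, and Tie1 overlapped. Among all genes tested, 31.3% were lower and 29.0% higher without overlap. None of the members passed in the fit of 12 libraries, in which 1.19% of all genes passed. At an unadjusted p under 0.05 there were 3 members, against 14.8% of all genes. The day 6 libraries, with their wide spread between replicates, enter that fit. In a fit without them, chosen after seeing the data, 5 members passed, where 4.37% of all genes did. These were Gata2, higher (adjusted p = 0.0464), and Kdr, Etv2, Sox18 and Tal1, lower (adjusted p = 0.0314, 0.0314, 0.0252 and 0.0241). Kdr and Tal1 are in that fit only through day 6, since they average 0.772 and 0.496 FPKM over the 8 libraries it uses. With the minimum set on those 8 libraries, 6 members were tested and 3 passed, where 4.51% of all genes did. These were Etv2 and Sox18, lower (adjusted p = 0.0298 and 0.0301), and Pecam1, higher (adjusted p = 0.0373), while Gata2 had an adjusted p of 0.0507. When only the 4 day 3 libraries were fitted, 0 members passed, against 0.0401% of all genes, and the adjusted p of Gata2 was 0.109. Of 14 other tested endothelial genes 0 passed at day 3 by limma and 6 were above 0 (median -0.03). Of 7 other tested blood genes 0 passed, and 2 were above 0 (median -0.11). At an unadjusted p under 0.05, 3 of the 14 endothelial genes and 1 of the 7 blood genes differed, against the same 14.8% of all genes.

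**Figure D2:**
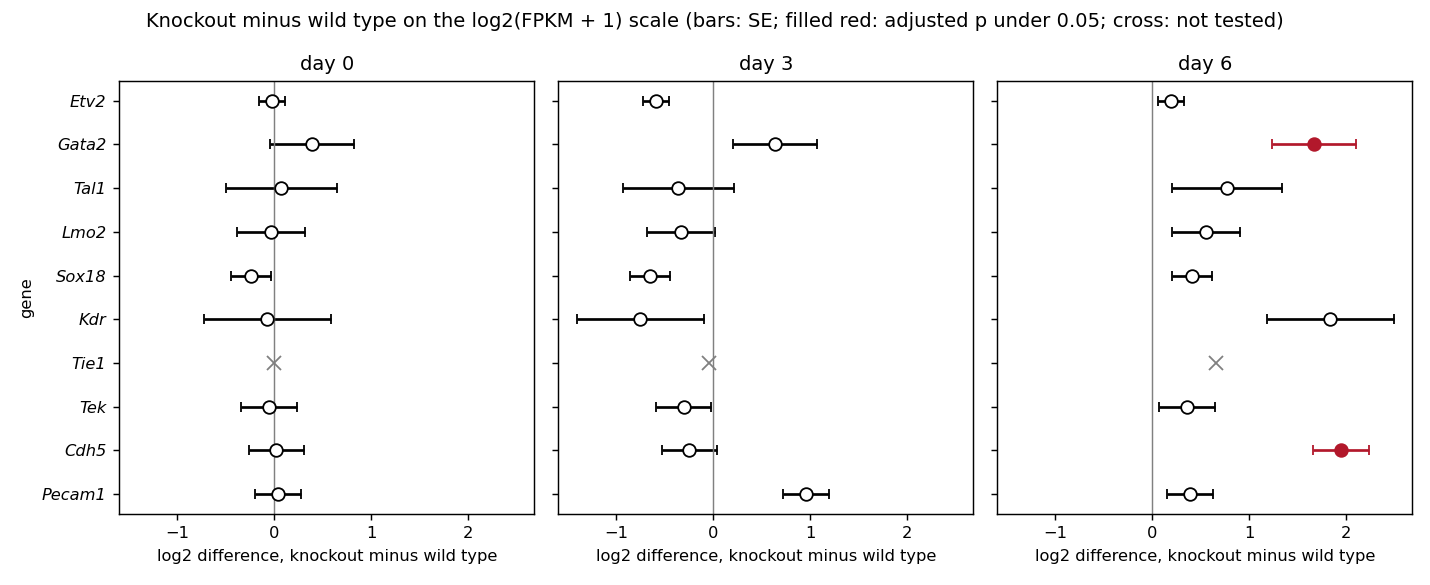
Each panel is 1 day, with the log2 difference of knockout minus wild type on the log2(FPKM + 1) scale for each gene, and bars of 1 SE from limma. Filled red points passed an adjusted p of 0.05, open points did not, and crosses mark Tie1, which was not tested. At day 3, 8 of the 10 points lie below 0, and at day 6 all 10 lie above it.

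At day 6 Cdh5 and Gata2 rose in knockout relative to wild type, and all 10 log2 differences were above 0. Cdh5, which encodes the cadherin of endothelial junctions (chromosome 8, 104101613 to 104144504), had 8.16 and 11.4 FPKM in knockout, against 0.952 and 2.92 FPKM in wild type. That is 9.79 ± 2.31 FPKM against 1.94 ± 1.39 FPKM (SD, n = 2 each), a 5.06-fold ratio of means (log2 difference 1.95, SE 0.29, adjusted p = 0.00206). Gata2 had 8.41 and 12.2 FPKM in knockout and 0.979 and 5.24 FPKM in wild type (log2 difference 1.67, SE 0.44, adjusted p = 0.0197). Both wild type libraries lay under both knockout libraries for these genes. At day 6, 34.1% of all genes were called, with 17.9% called higher in knockout, so a count of 2 of 10 is near the background. The median difference of the 10 genes was 0.60, against 0.02 for all genes. Both genes were also called with no minimum on expression. When only the 4 day 6 libraries were fitted, 0 members and 0.160% of all genes passed (adjusted p = 0.114 for Cdh5 and 0.201 for Gata2).

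Kdr had the highest mean of the set at day 6, at 43.5 and 51.6 FPKM in knockout and 4.41 and 33.0 FPKM in wild type. The groups did not overlap, wild type replicate 1 stood far under replicate 2, and the difference did not pass (log2 difference 1.83, SE 0.65, adjusted p = 0.0593). Tal1 had 3.59 and 9.58 FPKM in knockout and 1.04 and 7.17 FPKM in wild type. Lmo2 had 6.55 and 11.4 FPKM in knockout and 3.47 and 8.73 FPKM in wild type. For both, the wild type libraries stood on either side of knockout replicate 1. Their log2 differences were 0.77 (SE 0.57, adjusted p = 0.320) and 0.56 (SE 0.35, adjusted p = 0.239).

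Etv2 had 6.70 and 7.0 FPKM in knockout and 5.03 and 6.84 FPKM in wild type at day 6 (log2 difference 0.19, SE 0.13, adjusted p = 0.290). Sox18 had 1.28 and 2.45 FPKM in knockout and 1.39 and 0.869 FPKM in wild type (log2 difference 0.41, SE 0.21, adjusted p = 0.154). The receptor gene Tek (chromosome 4, 94739086 to 94874976) had 0.667 and 2.33 FPKM in knockout and 0.614 and 1.10 FPKM in wild type (log2 difference 0.36, SE 0.29, adjusted p = 0.360). Tie1 (chromosome 4, 118471191 to 118489849) had 0.538 and 1.82 FPKM in knockout and 0.113 and 0.580 FPKM in wild type (log2 difference 0.65, not tested). For Sox18, Tek and Tie1 the libraries of the genotypes overlapped, and knockout replicate 2 stood above the other 3 libraries. Pecam1 had by then come down to 4.32 and 7.09 FPKM in knockout and 4.67 and 3.45 FPKM in wild type, with overlap (log2 difference 0.39, SE 0.24, adjusted p = 0.230).

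The 4 day 6 libraries did not fall simply by genotype. Knockout replicate 2 held the highest value of the 4 for all 10 genes, against 35.6% of all genes tested. Wild type replicate 1 held the lowest for 8 of the 10, Pecam1 and Sox18 being the exceptions, against 32.5% of all genes. Within wild type, replicate 2 exceeded replicate 1 by 7.49-fold for Kdr, 6.87-fold for Tal1, 5.36-fold for Gata2, 5.13-fold for Tie1 and 3.07-fold for Cdh5. Within knockout the same ratios were 1.19, 2.67, 1.46, 3.39 and 1.40. For 3 genes the ratio was larger in knockout: 3.49 against 1.79 in wild type for Tek, 1.91 against 0.624 for Sox18 and 1.64 against 0.737 for Pecam1. At days 0 and 3 the largest ratio between replicates of a member was 2.33, for Tie1.

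The groups did not overlap for 3 members at day 6, all higher in knockout (Cdh5, Gata2 and Kdr), where 34.4% of all genes were higher and 29.3% lower without overlap. Leaving out single day 6 libraries moved the count of members called between 1 and 6. Here the sample left alone in its group is assumed to vary like the others. Without wild type replicate 1, Cdh5 (1.44, adjusted p = 0.00348) and Gata2 (0.84, adjusted p = 0.0335) still passed, while Kdr came to 0.51 (adjusted p = 0.0646), Tal1 to -0.23 and Lmo2 to -0.01, and 20.6% of all genes passed. Without wild type replicate 2, 6 members and 39.0% of all genes passed, among them Kdr at 3.16 (adjusted p = 4.78e-05). Without knockout replicate 1, 4 members and 34.3% of all genes passed, with Sox18 (0.70, adjusted p = 0.0221) and Tek (0.86, adjusted p = 0.0148) added. Without knockout replicate 2, 1 member, Cdh5, and 16.2% of all genes passed (1.73 for Cdh5, adjusted p = 0.0197, and 1.42 for Gata2, adjusted p = 0.124). Of the 2 members called at day 6, Cdh5 kept its call in each of these 4 fits and Gata2 in 3 of them.

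**Figure D3:**
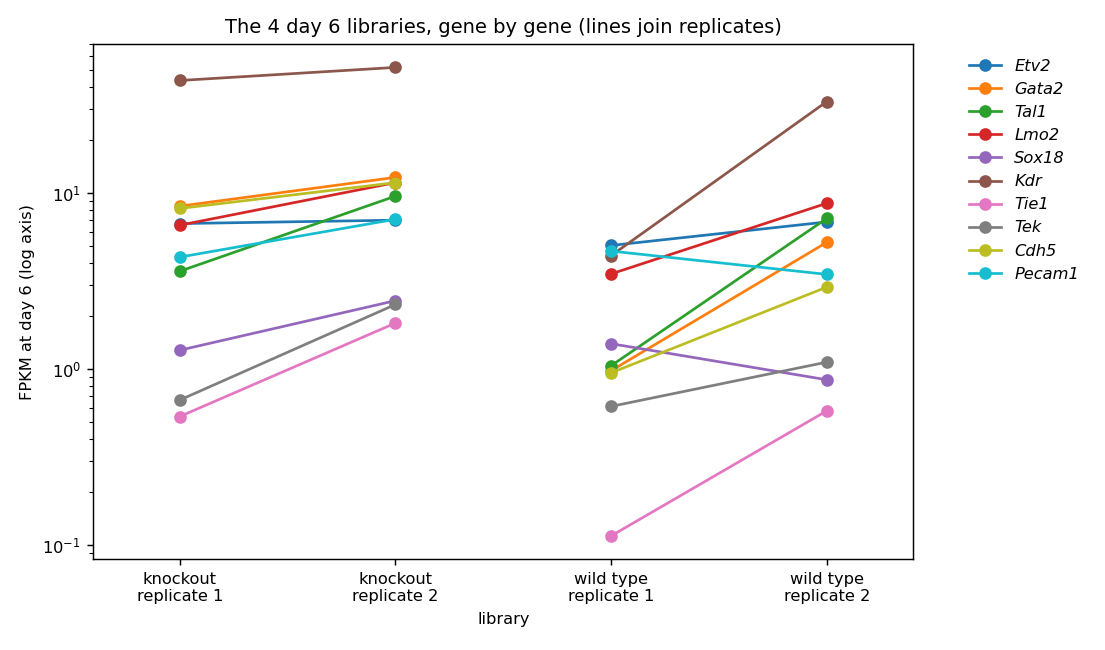
FPKM at day 6 on a log axis is plotted for the 4 libraries, with 1 colour per gene and lines joining the replicates of a genotype. Kdr stands at 43.5 and 51.6 FPKM in knockout and at 4.41 and 33.0 FPKM in wild type, and most lines drop to their lowest point in wild type replicate 1.

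The steps between days were tested within each genotype. From day 0 to day 3, 3 members rose in knockout (Etv2, 1.04, Lmo2, 1.02, and Cdh5, 0.99) and 0 fell, where 52.6% of all genes changed. In wild type 4 rose over the same step (Etv2, 1.61, Lmo2, 1.32, Cdh5, 1.26, and Sox18, 0.94) and Pecam1 fell by 1.52 on the log2 scale, where 55.7% of all genes changed. The knockout calls for Cdh5 (adjusted p = 0.0177) and Lmo2 (adjusted p = 0.0355) ended in each fit that left out 1 library of that step, and that for Lmo2 also with no minimum (adjusted p = 0.0583). In the fit without day 6, all 9 tested members passed in knockout over this step, 7 higher and 2 lower, where 59.6% of all genes did. With the minimum set on the 8 libraries used, 5 of 6 passed, 4 higher and 1 lower, where 60.2% of all genes did. The difference between the genotypes in this step, tested as an interaction, passed for 0 of the 10 by limma, where 0.0401% of all genes passed. Its lowest unadjusted p were those of Etv2 (-0.57, SE 0.19, adjusted p = 0.529) and Pecam1 (0.91, SE 0.33, adjusted p = 0.575). These were the 2 members with an unadjusted p under 0.05, against 7.67% of all genes.

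From day 3 to day 6, 6 members rose in knockout and 1 fell, where 59.1% of all genes changed. Kdr rose most, by a log2 change of 4.75 (SE 0.65, adjusted p = 4.91e-04), followed by Cdh5 (2.35), Tal1 (2.14), Gata2 (1.87), Lmo2 (1.80) and Etv2 (1.01), while Pecam1 fell (-1.16). In wild type only Kdr rose (2.17, SE 0.65, adjusted p = 0.0323) and Sox18 fell (-0.65, SE 0.21, adjusted p = 0.0375), where 35.9% of all genes changed. Kdr reached the minimum through day 6, and its wild type call ended with no minimum (adjusted p = 0.0544). Without wild type day 6 replicate 1, 6 members rose and 1 fell in wild type as well, where 42.0% of all genes changed. The count of 2 came to 0 without either wild type day 3 library. The interaction of genotype with this step passed for Cdh5 alone, at 2.19 (SE 0.40, adjusted p = 0.0271), where 4.51% of all genes passed. The log2 change of Cdh5 between these days was 2.35 in knockout and 0.16 in wild type. Cdh5 reached the minimum only through knockout at day 6, and with no minimum this interaction had an adjusted p of 0.0382 by limma. Taking out trends with GC content and length ended that call (2.07, adjusted p = 0.0530), as did 5 of the 8 fits that left out 1 library (adjusted p of 0.0847 to 0.115): each day 3 library of either genotype and knockout day 6 replicate 2.

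Across the 12 libraries, Kdr, Tal1 and Lmo2 ran closely together (Pearson's r of 0.965 for Kdr with Tal1, 0.956 for Kdr with Lmo2 and 0.952 for Tal1 with Lmo2). Pecam1 had a negative r with 8 of the other members, down to -0.94 with Etv2, and an r of 0.148 with Tek. These values describe libraries that share their time course. Over all tested genes, those most like Kdr were Vstm2b, Asb4 and Igfbp4 (r = 0.994 each). Those most like Tal1 were Zfp711, Rasgrp3 and Hapln1 (0.991, 0.991 and 0.989), and those most like Lmo2 were Srgap2, Kcnmb4 and F2r (0.992 each). Cdh5 came closest to Shank3, Men1 and Man1a (0.989, 0.984 and 0.983), Gata2 to Plac1, Abcd4 and Tmc4 (0.982, 0.979 and 0.978), and Etv2 to Cers4, Sox4 and Limd2 (0.988, 0.987 and 0.986). The nearest neighbours of Pecam1 were Zfp710, Sde2 and Llgl2 (0.978, 0.975 and 0.974), and those of Sox18 were Mcur1, Etv6 and Runx1t1 (0.922, 0.917 and 0.909). Tek had no neighbour above r = 0.870 (Pgam2).

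Among 4 tested genes for VEGF and angiopoietin ligands, Vegfc and Vegfb rose in knockout at day 6 and none fell, where 17.9% of all genes were called higher and 16.2% lower. Vegfc, for a ligand of lymphatic endothelium, had 8.81 and 15.7 FPKM in knockout and 3.94 and 7.0 FPKM in wild type (log2 difference 1.03, SE 0.26, adjusted p = 0.0170). Vegfb, whose product binds the related receptor Flt1 and not that of Kdr, had 53.9 and 66.5 FPKM in knockout and 44.8 and 47.5 FPKM in wild type (log2 difference 0.37, SE 0.09, adjusted p = 0.0181). Vegfa, the main ligand of the Kdr receptor, had 30.3 and 38.3 FPKM in knockout and 14.6 and 31.4 FPKM in wild type at day 6 and was not called. Angpt1, Vegfd and Pgf were under the minimum and not tested. Angpt1 had 0.120 and 0.189 FPKM in knockout and 0.834 and 0.575 FPKM in wild type at day 6. Vegfd had 0.697 and 0.746 FPKM in knockout and 0.838 and 0.923 FPKM in wild type, both genes being lower in knockout without overlap. Pgf was higher, at 1.76 and 2.43 FPKM in knockout and 0.584 and 1.07 FPKM in wild type. Vegfa, Angpt1, Vegfd and Pgf were named after their values were seen.

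Of 7 genes for partners of Tal1, Lmo2 and Gata2, 4 were called higher and 1 lower in knockout at day 6, against the same shares of all genes, with a median of 0.30. The largest rise was in Zfpm1, which encodes the GATA cofactor FOG1, at 40.0 and 59.6 FPKM in knockout and 5.0 and 22.3 FPKM in wild type (log2 difference 2.08, SE 0.50, adjusted p = 0.0150). Ldb1, the dimerizing protein that binds Lmo2, had 70.2 and 82.8 FPKM in knockout and 55.1 and 56.8 FPKM in wild type (0.44, SE 0.09, adjusted p = 0.00661). Tcf3, for an E protein partner of Tal1 (0.43), and Ssbp3 (0.30) were also higher, and Ssbp2, named after its values were seen, was lower. At days 0 and 3, 0 of the 7 passed by limma, against 0.369% and 1.19% of all genes. At an unadjusted p under 0.05 there were 2 and 1, against 14.7% and 14.8% of all genes.

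Other endothelial and blood genes did not pass at day 6. Of 22 listed endothelial genes 14 were tested and 0 were called (median 0.24, 4 at an unadjusted p under 0.05, against 46.4% of all genes). Of 19 listed blood genes 7 were tested and 0 were called (median 0.47, 2 at an unadjusted p under 0.05). The summed level of the endothelial list was 77.1 and 132 FPKM in knockout and 59.2 and 90.6 FPKM in wild type, and that of the blood list 39.5 and 85.1 FPKM in knockout and 37.4 and 51.0 FPKM in wild type. Sox17 and Sox7 of the endothelial list are also in the extraembryonic endoderm list. Sox17 had 10.1 and 21.0 FPKM in knockout and 6.31 and 16.5 FPKM in wild type. Fli1, an ETS factor of both lineages, had 3.90 and 7.92 FPKM in knockout and 0.850 and 4.85 FPKM in wild type, the same order of libraries as Tal1. Tal2, Robo4, Flt4 and Notch4 of the endothelial list went the other way, lower in both knockout libraries than in either wild type library. Erg, Esam, Eng, Mmrn2, Icam2 and Vwf of that list were higher in both knockout libraries than in either wild type library. Among all genes tested, 34.4% were higher and 29.3% lower without overlap. Tal2 had 0.45 and 0.76 FPKM in knockout and 2.09 and 2.12 FPKM in wild type. Tal2, Robo4, Erg, Icam2 and Vwf were not tested. Among the tested genes, 9 of 14 endothelial and 6 of 7 blood genes had a log2 difference above 0. Of the 22 endothelial genes, 8 were under 1 FPKM in all 4 day 6 libraries, 8 were at 1 FPKM or more in all 4, and 6 were mixed. Of the 19 blood genes, 3 were under 1 FPKM in all 4, 6 were at 1 FPKM or more in all 4, and 10 were mixed. The lowest of each list were the endothelial gene Emcn, at most 0.027 FPKM in these libraries, and the leukocyte gene Ptprc, at most 0.0067 FPKM. The embryonic globin gene Hbb-bh1 had 1.13 and 13.6 FPKM in knockout and 0 and 3.10 FPKM in wild type at day 6. Fli1, Tal2, Robo4, Flt4, Emcn, Ptprc and Hbb-bh1 were named after their values were seen. So were Sox17, Sox7, Notch4, Erg, Esam, Eng, Mmrn2, Icam2 and Vwf.

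Of 9 tested genes of early mesoderm, the source of this path, 6 rose in knockout at day 6 and 0 fell, with a median of 2.00. The counts called in this and the following lists stand against 17.9% of all genes called higher and 16.2% lower. Bmp4, for a ligand that promotes this mesoderm, had 38.7 and 60.0 FPKM in knockout and 3.10 and 16.7 FPKM in wild type (log2 difference 2.53, SE 0.55, adjusted p = 0.00965). Pdgfra had 20.7 and 26.9 FPKM in knockout and 1.82 and 12.5 FPKM in wild type (2.00, adjusted p = 0.0263). The summed level of the 11 listed mesoderm genes was 586 and 614 FPKM in knockout and 89.9 and 349 FPKM in wild type. Gata2 is also known from trophoblast cells, and the trophoblast list summed to 704 and 984 FPKM in knockout and 190 and 450 FPKM in wild type, with 4 of 6 tested genes called higher and 0 lower. Krt8 and Krt18, keratin genes of simple epithelia in general, and Eomes, also in the mesoderm list, made up 669 and 944 FPKM of that sum in knockout and 177 and 432 FPKM in wild type. Cdx2 had 10.17 and 18.95 FPKM in knockout and 0.944 and 4.44 FPKM in wild type (2.20, SE 0.43, adjusted p = 0.00653 by limma). Gata3 had 7.44 and 9.73 FPKM in knockout and 1.46 and 4.29 FPKM in wild type (1.40, SE 0.30, adjusted p = 0.00917 by limma). Elf5, which was not tested, stayed between 0.090 and 0.180 FPKM in the day 6 libraries. Pluripotency genes summed to 298 and 137 FPKM in knockout and 529 and 268 FPKM in wild type, with Sox2 called lower among 9. Neural genes summed to 52.7 and 25.0 FPKM in knockout and 106 and 65.6 FPKM in wild type, with 6 of 7 called lower. Cardiac genes summed to 52.6 and 69.9 FPKM in knockout and 13.2 and 43.7 FPKM in wild type (2 higher and 1 lower of 4 tested). Gata4 alone made up 36.4 and 51.2 FPKM of that sum in knockout and 5.95 and 25.7 FPKM in wild type. Actc1 was the gene called lower. Extraembryonic endoderm genes summed to 140 and 212 FPKM in knockout and 79.3 and 126 FPKM in wild type (3 higher of 6: Gata6, Lamb1 and Col4a1). Much of that sum came from the matrix genes Col4a1 (54.1 and 88.8 FPKM in knockout, 23.45 and 42.8 FPKM in wild type) and Lamb1 (42.6 and 47.9 FPKM, 34.6 and 37.5 FPKM). Fibroblast genes summed to 18.3 and 32.8 FPKM in knockout and 9.30 and 15.9 FPKM in wild type (2 higher of 6). Wild type replicate 1 held the lowest sum of mesoderm and trophoblast genes and the highest of pluripotency genes. The part of cell makeup in the differences of the members was not tested.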

How the data were processed

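The deposited values are FPKM, made by the authors for 12 embryoid body libraries. Libraries of total RNA were read from a single end, and Trim Galore 0.4.1 and TopHat2 2.0.13 with mm10 came before quantification, per the labels' design text. The submitters' processing notes also list Cufflinks 2.2.1, Cuffdiff and HTSeq 0.6.1 without roles. Annotation and strand use are unstated, so reads of overlapping antisense genes cannot be told apart. Of 24550 rows, 92 were spike-ins listed at 0 throughout and were dropped. No pair of libraries shared more than 3 equal values above 0, so all were kept. The stem cell table has 6 replicate columns, 3 per genotype against 2 labelled samples, which could not be matched and were not used.

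Columns were matched by the genotype, replicate and day in their names. A limma 3.58.1 fit (R 4.3.3) of log2(FPKM + 1) used a mean for each group, a variance trend and two-sided tests, and was tested on simulated data. Depth was estimated from steps of 1 read in 4083 genes with a single GENCODE transcript, so reads per value are approximate. The p-values measure the spread between these samples. Members, lists and tests were chosen with earlier results of these data known. The text names the 10 members, up to 3 similar genes for each tested one, and list genes past the threshold, at most 4 per list and day. Vegfa, Angpt1, Vegfd, Pgf, Ssbp2, Fli1, Tal2, Robo4, Flt4, Emcn, Ptprc, Hbb-bh1, Eomes and Elf5 were named in the text after their values were seen. So were Sox17, Sox7, Notch4, Erg, Esam, Eng, Mmrn2, Icam2 and Vwf of the endothelial list. Alternatives were another pseudocount (0.1), no minimum, quantile normalization, single-day fits, a replicate block, each library left out and, added later, a fit without day 6, the same with its own minimum, and removal of GC and length trends.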

Additional observations from a re-analysis of the deposited data

Results flagged for a closer look

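The change of Cdh5 between days 3 and 6 differed between the genotypes by limma's interaction test. The log2 difference of the changes was 2.19 (SE 0.40, adjusted p = 0.0271), from 2.35 in knockout and 0.16 in wild type, with 2 libraries per group. Cdh5 reached the minimum of 1 FPKM only through the knockout libraries of day 6, and with no minimum the adjusted p was 0.0382. Both knockout libraries at day 6 lay above both at day 3. In wild type, the day 6 libraries stood on either side of those of day 3. The adjusted p of this result ranged from 0.0847 to 0.115 in the 5 fits without 1 library that ended the call.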

How the results depend on the processing

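Counts of members called at day 6 (2) came to 0 in the fit of that day alone and to 1 to 6 with 1 library left out. At day 3 the count (0) came to 5 without the day 6 libraries, and to 3 with the minimum also set on the libraries used, both chosen after seeing the data. For day 3 against day 0 in knockout (3) it was 5 with a pseudocount of 0.1, 1 after quantile normalization, 9 without day 6, 5 with the minimum also set without day 6, and 1 in each fit without 1 library. For day 6 against day 3 in wild type (2) it was 1 with no minimum, 1 with the replicate block and 0 to 7 with 1 library left out. The interaction from day 3 to day 6 (1) gave 3 after quantile normalization, 0 with GC content and length trends taken out, and 0 to 6 with 1 library left out. The share of all genes called also moved, including with 1 library left out. For day 3 against day 0 in knockout it was 52.6%, with 53.1% for the pseudocount, 47.9% after quantile normalization and 59.6% without day 6. For day 6 against day 3 in wild type it was 35.9%, with 22.8% for no minimum and 30.9% for the replicate block. For the interaction it was 4.51%, with 6.75% after quantile normalization and 1.10% with GC content and length trends taken out. The cause was not tested.

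Directions that turned were all of differences that had not passed. With 1 library left out, knockout minus wild type at day 0 ran from -0.0030 to 0.0483 for Cdh5, -0.127 to 0.0769 for Etv2, -0.112 to 0.0432 for Lmo2 and -0.162 to 0.0628 for Tek. At day 6 it ran from -0.23 to 1.77 for Tal1, -0.0058 to 1.12 for Lmo2 and -0.14 to 0.86 for Tek. Tek ran from -0.155 to 0.0692 for day 3 minus day 0 in wild type and from -0.0567 to 0.94 for day 6 minus day 3 in knockout, and Cdh5 from -0.35 to 0.66 for day 6 minus day 3 in wild type. Quantile normalization gave -0.0183 for that Cdh5 change and -0.0794 for Gata2 from day 0 to day 3 in wild type. Etv2 at day 6 was -0.0098 with GC content and length trends taken out.

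Same-numbered libraries of the genotypes correlated in their deviations at 0.0274, 0.0834 and 0.243 on days 0, 3 and 6, so the numbers were not taken to pair them. Between days within a genotype these correlations ran from -0.0807 to 0.0755, and the main fit did not pair days by line. The replicate block called 3 members at day 6, Kdr being added (adjusted p = 0.0481). The planned comparison of stem cells was not run. Few reads stand behind Tie1, and behind Cdh5 at day 0.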
